A study of Mus musculus with 12 samples.

Results

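Lipoxygenases and the enzymes of prostaglandin synthesis were followed as a set of 9 genes in the ribosome-bound mRNA of hippocampal CA1 pyramidal neurons, in mice with and without a working Fmr1 gene. The set holds 5 lipoxygenases (Alox12b, Aloxe3, Alox8, Alox12 and Alox5), both cyclooxygenases (Ptgs1 and Ptgs2) and the terminal synthases Ptgds and Ptges. Members were found by gene symbol, and all 9 of the symbols were among the 24079 genes of the count table and among the 17823 genes tested. The set was built around Alox12b, which was chosen by its genotype difference in these same counts, and the other members were added by function with earlier results known. The genotype comparison of the members is therefore given as a description.

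All mice carried the tamoxifen-inducible Wfs1-CreERT2 transgene and the RiboTag allele, so that cells with Wfs1 promoter activity make the ribosomal protein Rpl22 with an HA tag. The wild-type group (labelled WT, Wfs1-CreERT2:RiboTag) and the Fmr1-/y group (labelled KO, Wfs1-CreERT2:RiboTag:Frm1 knockout) held 6 libraries each, all from males aged 2 to 6 months. Tamoxifen (100 mg/kg) was given for 3 days and hippocampi were taken 1 week later. Each library came from a pool of 4 to 6 mice, so the spread between libraries is that between pools. FMRP, the RNA-binding protein encoded by Fmr1, is missing from every cell of the knockout mice and not only from the tagged neurons. Depth was between 39400980 and 65565479 reads counted on genes per library. The Fmr1 transcript itself, read to check the labels, was counted 1971 to 2608 times per wild-type library. It had no read in 5 Fmr1-/y libraries and 1 read in replicate 2. Levels are given as CPM, read counts divided by a library size scaled with TMM.

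Markers of the labelled cell type were read, with no unpurified input library to measure enrichment against. The 8 CA1 pyramidal markers, Wfs1 and Camk2a among them, summed to 7421 to 9482 CPM per library and none was at 0 reads in any library. Markers of other cells were also present, and the 8 choroid plexus markers summed to 6445 to 17657 CPM, most of it the transthyretin gene Ttr. The 8 leptomeningeal fibroblast markers summed to 622 to 1925 CPM, the 8 oligodendrocyte markers to 1002 to 1675 CPM, the 7 astrocyte markers to 1711 to 2646 CPM and the 8 microglial markers to 101 to 140 CPM. None of the markers in these lists was at 0 reads in any library. In bulk RNA of this kind, fewer cells of a type and less RNA per cell cannot be told apart.

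Arachidonic acid, released from membranes by phospholipases, is the fatty acid at the start of prostaglandin and leukotriene synthesis. Cyclooxygenases turn it into prostaglandin H2, from which terminal synthases make the single prostanoids. Lipoxygenases can add oxygen to the same fatty acid and start the leukotrienes, hydroxy fatty acids and hepoxilins. Aloxe3 processes a hydroperoxide that another lipoxygenase has made. In brain, Ptgs2 is known as an enzyme of neurons that responds to synaptic activity, and Ptgds as a product of leptomeninges, choroid plexus and oligodendrocytes that is secreted into the cerebrospinal fluid.

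Alox12b and Aloxe3 act one after the other in the outer skin, where they are needed for the lipid barrier of the epidermis, and with Alox8 they form a gene cluster on chromosome 11. On GRCm38, the same build as mm10, Aloxe3 (Entrez 23801) lies from 69125417 to 69149115 and Alox12b (Entrez 11686) from 69157072 to 69169791, both on the plus strand. Alox8 (Entrez 11688) lies from 69183885 to 69197843 on the minus strand, so that Alox12b and Alox8 are transcribed towards each other, with 14093 bases between their ends. The 250 bases before each start are shown for Alox12b and Alox8, the cluster members with the largest genotype differences, to set the sequence beside their values. They were taken from the RefSeq promoter table (GRCm38.p6), which held 8 of the 9 members. Aloxe3 was not matched. Both are printed in the direction of transcription, at chr11:69156822-69157071 (plus strand) for Alox12b and chr11:69197844-69198093 (minus strand) for Alox8, with GC-boxes in capitals. A GC-box reads GGGCGG on the printed strand when it lies on it, and CCGCCC when it lies on the opposite one.
Alox12b: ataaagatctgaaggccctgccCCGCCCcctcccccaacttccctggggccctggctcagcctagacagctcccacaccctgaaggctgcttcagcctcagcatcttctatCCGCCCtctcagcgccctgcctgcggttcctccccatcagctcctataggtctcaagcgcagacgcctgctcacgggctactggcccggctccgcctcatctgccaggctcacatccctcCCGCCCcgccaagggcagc
Alox8: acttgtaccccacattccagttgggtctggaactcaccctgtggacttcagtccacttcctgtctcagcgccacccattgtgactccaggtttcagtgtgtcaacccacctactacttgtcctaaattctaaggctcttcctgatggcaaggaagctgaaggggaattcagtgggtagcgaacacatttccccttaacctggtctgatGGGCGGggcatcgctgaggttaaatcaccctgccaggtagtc

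The window of Alox12b held 3 GC-boxes, which begin 228, 139 and 19 bases before the start, and that of Alox8 held 1, at 42 bases. A GC-box was found in the windows of 6 members and in 32.7% of all 32851 promoters of this length. The GC content was 66.0% for Alox12b and 52.4% for Alox8. The same windows were searched on both strands for the half-site TGACG of the cyclic AMP response element, which 17.8% of all promoters held. The other motifs searched were its whole palindrome TGACGTCA, which contains that half-site (1.55%), then the E-box CACGTG (6.02%), and the TATA box TATAAA (12.4%). None of these letters was found in any of the 8 windows.

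The level of each member was first compared over all 12 libraries, per kilobase of its longest annotated transcript paired with a RefSeq mRNA. Ptgds stood far above the others at 548 CPM per kilobase (339 to 952), and among all genes tested its CPM was higher than that of 98.6%. Alox12b came next at 9.69 CPM per kilobase (6.55 to 13.1). It was 3.54 times as high as Ptgs2, at 2.73 (1.68 to 3.65), and above it in 12 of 12 libraries. An epidermal lipoxygenase was thus the most abundant lipoxygenase of the set in this preparation, and it was also above Ptgs2. Without division by length, the means over all libraries were 23.55 CPM for Alox12b and 12.17 CPM for Ptgs2. Aloxe3 measured 1.92 CPM per kilobase (1.50 to 2.26), Ptgs1 1.72 (1.28 to 2.17) and Ptges 1.35 (0.906 to 1.93). The library ranges of Ptgs2, Aloxe3, Ptgs1 and Ptges overlapped from one to the next, and Aloxe3 was above Ptgs1 in only 8 of 12 libraries. Alox8 was at 0.821 CPM per kilobase (0.446 to 1.08). Its range overlapped those of Ptges and Alox5, although it was above Alox5 in 12 of 12 libraries. The lowest were Alox5 at 0.222 (0.0961 to 0.448) and Alox12 at 0.166 (0.0984 to 0.244), whose ranges overlapped, and each library held between 11 and 56 reads of either gene.

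**Figure D1:**
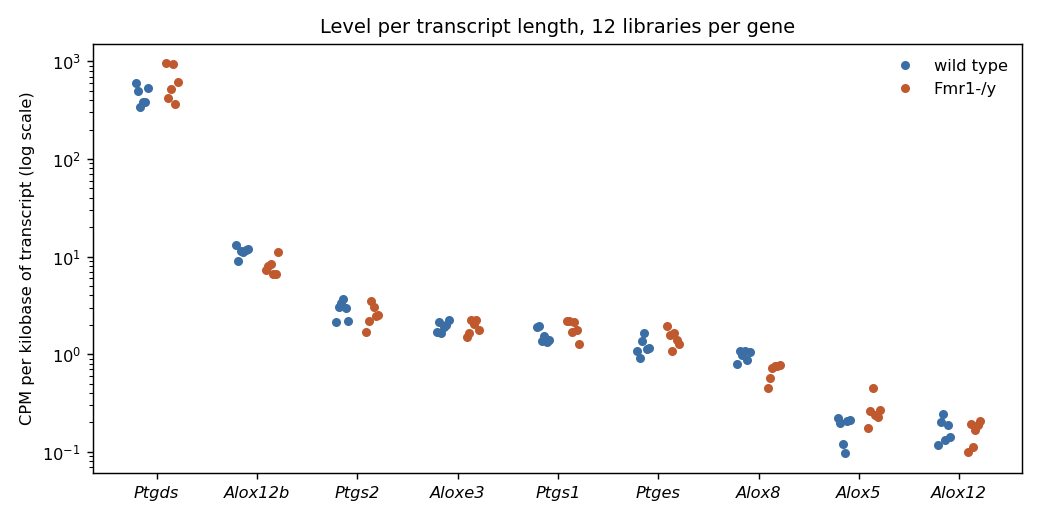
Level of each member in CPM per kilobase of transcript on a log axis, with 1 point for each of the 6 wild-type (blue) and 6 Fmr1-/y (orange) libraries. Ptgds lies above 339 and Alox12b between 6.55 and 13.1 in every library, and from Ptgs2 down to Alox12 each gene overlaps the next.

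The genotypes were then set side by side. Over the 9 members, 4 log2 fold changes (Fmr1-/y over wild type) were above 0 and 5 below, with a median of -0.02 beside 0.00 over all genes tested. The quasi-likelihood test of edgeR, which called 0.0224% of all genes at an adjusted p of 0.05, called none of the 9. An unadjusted p under 0.05 was reached by 3 members (Alox12b, Alox8 and Ptgds), beside 7.96% of all genes. DESeq2 called 1 member, Alox12b, beside 0.571% of the genes for which it gave an adjusted p. All 6 Fmr1-/y libraries lay below all 6 wild-type ones for 1 member, Alox8, as for 0.41% of all genes, and the reverse held for no member and 0.213% of all genes. Nothing is read from these counts, since this contrast chose the members.

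**Figure D2:**
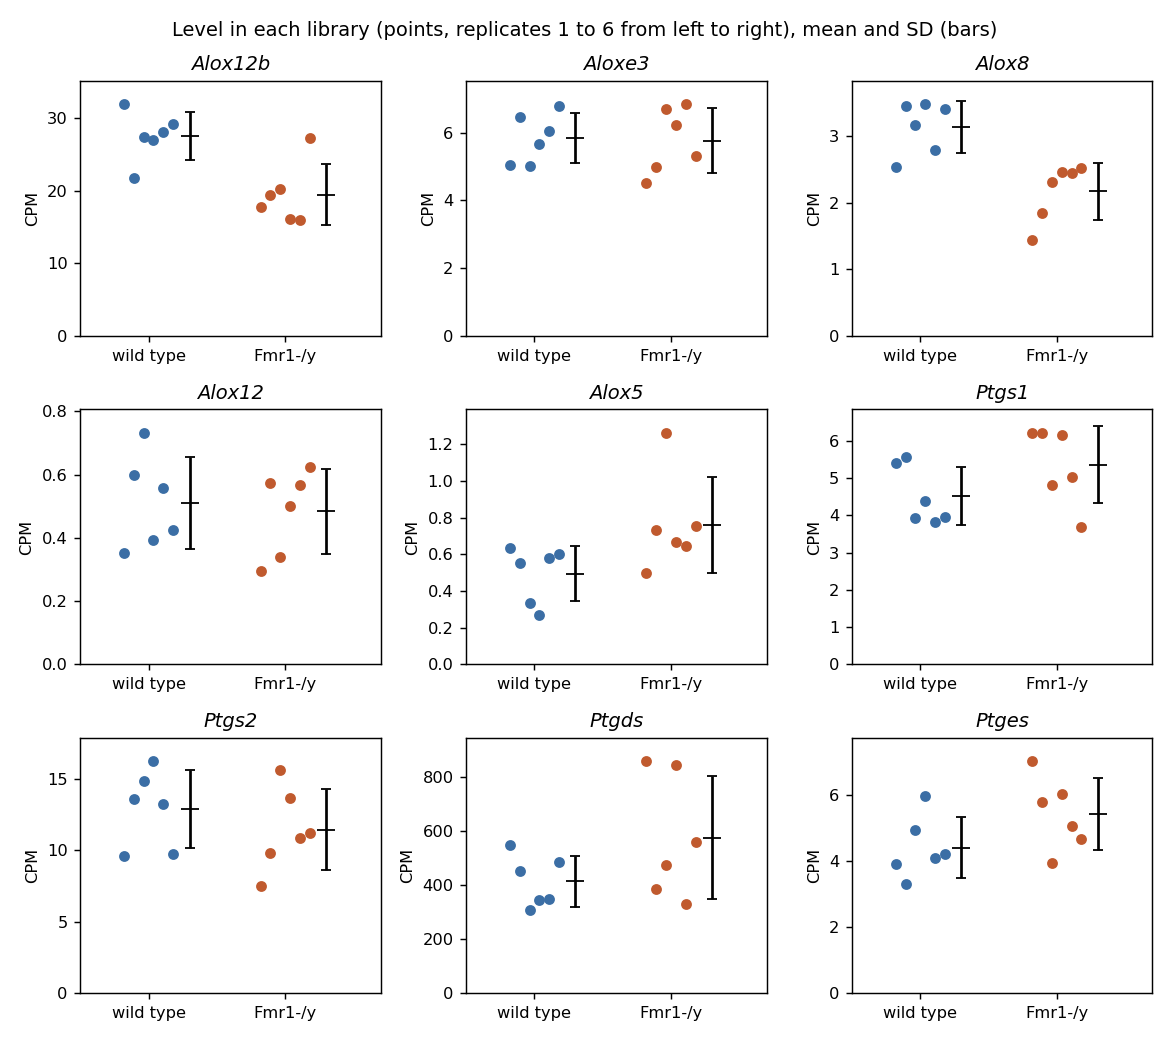
CPM of the 9 members, each panel starting at 0, with 1 point for each library in the order of the replicate numbers, and the mean and SD of 6 libraries as bars. The groups are apart for Alox8 alone, Alox12b overlaps through Fmr1-/y replicate 6, and Fmr1-/y replicates 1 and 4 stand at the top of the Ptgds panel.

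Alox12b makes the R-configured hydroperoxide that Aloxe3 processes further. In wild-type replicates 1 to 6 it measured 32.0, 21.8, 27.5, 27.0, 28.1 and 29.3 CPM, and in Fmr1-/y replicates 1 to 6 it measured 17.8, 19.4, 20.3, 16.2, 15.9 and 27.3 CPM. Of the Fmr1-/y libraries, 5 lay below the lowest wild-type library and replicate 6 lay within the wild-type range. The means were 27.6 ± 3.33 and 19.5 ± 4.22 CPM (SD, n = 6 each), 70.6% of wild type, with a log2 fold change of -0.50 (standard error 0.12). In edgeR's quasi-likelihood test over all genes the Benjamini-Hochberg adjusted p was 0.226, and DESeq2's Wald test gave an adjusted p of 0.0226. These values are those the gene was chosen by. Leaving out single libraries gave log2 fold changes from -0.62, without Fmr1-/y replicate 6, to -0.45, without Fmr1-/y replicate 5. The CA1 pyramidal markers also had log2 fold changes below 0, in 8 of 8, with scores (mean log2 CPM) of 8.23 in wild-type and 8.09 in Fmr1-/y libraries (two-sided exact permutation test p = 0.0931, adjusted over 11 marker lists p = 0.209), and their part in the Alox12b values was not tested.

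Alox8, the mouse 8S-type lipoxygenase whose human counterpart is ALOX15B, differed by nearly the same ratio at a far lower level. Its wild-type libraries measured 2.53, 3.45, 3.17, 3.47, 2.79 and 3.40 CPM and its Fmr1-/y libraries 1.44, 1.84, 2.30, 2.46, 2.44 and 2.52 CPM. The groups did not overlap, although the highest Fmr1-/y library (2.52 CPM) almost reached the lowest wild-type library (2.53 CPM). The means were 3.13 ± 0.393 and 2.17 ± 0.432 CPM (SD, n = 6 each), the second being 69.1% of the first, and the log2 fold change was -0.53 (SE 0.17, edgeR adjusted p = 0.378).

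Aloxe3, the hepoxilin synthase of the same cluster, gave a different picture. It ranged from 5.01 to 6.79 CPM in wild-type libraries (median 5.85) and from 4.52 to 6.84 CPM in Fmr1-/y libraries (median 5.75), so the groups overlapped over nearly their whole range. Its log2 fold change was -0.02 (standard error 0.13), and the sign changed with library totals in place of TMM scaling (0.01). Of the reads on the 3 cluster genes, Alox12b held 75.3% ± 3.97 in wild-type and 70.7% ± 5.81 in Fmr1-/y libraries, Aloxe3 16.1% ± 2.65 and 21.3% ± 4.47, and Alox8 8.65% ± 1.56 and 7.95% ± 1.54 (SD, n = 6 each). The 3 shares overlapped between genotypes.

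The tested genes on both sides of the cluster were compared in the same way. On the side of Aloxe3, the synaptic vesicle gene Vamp2 and the clock gene Per1 both had a log2 fold change of -0.03, with standard errors of 0.07 and 0.08. Hes7, a repressor of the segmentation clock, had at most 23 reads in a library and a log2 fold change of -0.58 with a standard error of 0.72. On the side of Alox8, the retinal guanylate cyclase gene Gucy2e had 0.16 (standard error 0.18), Cntrob, a centriole gene, -0.05 (standard error 0.13), and Trappc1, a gene of vesicle tethering, -0.10 (standard error 0.08). None of these 6 neighbours had an adjusted p under 0.05 in edgeR, where the values lay between 0.838 and 0.962.

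**Figure D3:**
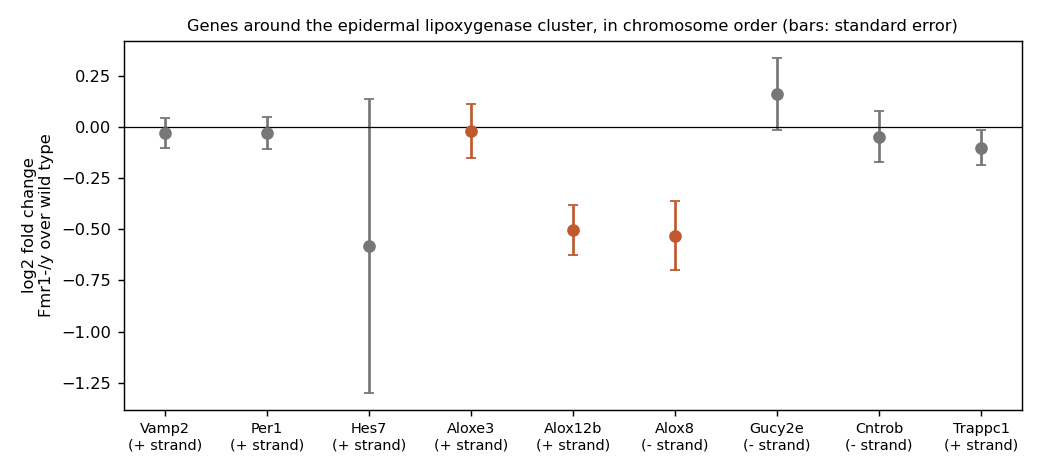
Log2 fold change (Fmr1-/y over wild type) with its standard error for the cluster members (orange) and the 3 tested genes on each side (grey), in chromosome order with the strand below each name. Alox12b (-0.50) and Alox8 (-0.53) lie below their neighbours, apart from Hes7 (-0.58), whose standard error of 0.72 crosses 0.

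Alox12 and Alox5 were the rarest members. Alox12 (Entrez 11684, chromosome 11 from 70241457 to 70255380), the platelet-type enzyme, had 15 to 37 reads in a library. Wild-type libraries averaged 0.510 ± 0.145 CPM and Fmr1-/y libraries 0.483 ± 0.136 CPM (SD, n = 6 each), and the groups overlapped (log2 fold change -0.08, SE 0.33), with a sign that turned when single libraries were left out. Alox5 (Entrez 11689, chromosome 6 from 116410071 to 116461178) starts leukotriene synthesis together with the helper protein Alox5ap. Its wild-type libraries measured 0.632, 0.551, 0.337, 0.271, 0.583 and 0.600 CPM, and its Fmr1-/y libraries 0.498, 0.733, 1.26, 0.667, 0.644 and 0.754 CPM. Of the Fmr1-/y libraries, 5 were above the highest wild-type library and replicate 1 was inside the wild-type range. The log2 fold change of 0.61 had a standard error of 0.32 (adjusted p = 0.687 in edgeR), and without Fmr1-/y replicate 3 it was 0.41.

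Ptgs1 and Ptgs2, the cyclooxygenases, overlapped between genotypes. Ptgs1 (Entrez 19224, chromosome 2 from 36216742 to 36258593), known as the constitutive enzyme and abundant in microglia, averaged 4.51 ± 0.778 CPM without and 5.36 ± 1.03 CPM with the knockout (SD, n = 6 each). Of the Fmr1-/y libraries, 3 were above the wild-type maximum of 5.56 CPM and 1 was below the wild-type minimum of 3.83 CPM (log2 fold change 0.25, SE 0.15, edgeR adjusted p = 0.751). Ptgs2 (Entrez 19225, chromosome 1 from 150100031 to 150108234), the inducible enzyme, measured 9.61, 13.6, 14.9, 16.3, 13.3 and 9.72 CPM in wild-type libraries. Its Fmr1-/y libraries were at 7.49, 9.83, 15.6, 13.7, 10.9 and 11.2 CPM. The means of 12.9 ± 2.71 and 11.4 ± 2.86 CPM (SD, n = 6 each) differed by less than either SD, and the log2 fold change was -0.17 (SE 0.17, edgeR adjusted p = 0.871). For Ptgs2 it was -0.08 without Fmr1-/y replicate 1, -0.10 without wild-type replicate 4 and -0.28 without Fmr1-/y replicate 3. The 11 activity-regulated genes, Fos, Arc and Npas4 among them, had scores of 5.07 in wild-type and 4.99 in Fmr1-/y libraries (exact permutation test p = 0.442, adjusted p = 0.505).

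Ptgds, the lipocalin-type prostaglandin D synthase, was the member with the widest spread in CPM and the highest level. Its SD was 23.0% of the mean in wild-type libraries, below those of Alox5 (30.7%) and Alox12 (28.4%). In Fmr1-/y libraries it was 39.6%, the highest of the members. Ptgds (Entrez 19215, chromosome 2 from 25466709 to 25470110) measured 548, 450, 306, 344, 347 and 485 CPM in wild-type libraries. Its Fmr1-/y libraries measured 858, 384, 475, 842, 330 and 557 CPM. Replicates 1 and 4 were far above the other Fmr1-/y libraries, which lay between 330 and 557 CPM and overlapped the wild-type range of 306 to 548 CPM. The means were 413 ± 95.2 and 574 ± 227 CPM (SD, n = 6 each), the second being 139% of the first, and the log2 fold change was 0.47 (SE 0.21, edgeR adjusted p = 0.592). Without these 2 libraries, a choice made after seeing the data, the log2 fold change was 0.08.

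The same 2 libraries also had the highest scores of all 12 for markers of the leptomeninges and of the choroid plexus. The leptomeningeal score was 5.07 and 5.11 in Fmr1-/y replicates 1 and 4 and between 4.21 and 4.51 in the other libraries, and the choroid plexus score was 7.80 and 7.51 against 6.50 to 7.28. Fmr1-/y replicate 1 also had the highest astrocyte (7.52) and microglial (3.64) scores of all 12 libraries and the lowest activity-regulated score (4.60). Replicate 4 had 7.20, 3.28 and 4.95 for these lists. By genotype, 7 of 8 leptomeningeal markers had log2 fold changes above 0 (summed level 730 to 1352 CPM in wild-type and 622 to 1925 CPM in Fmr1-/y libraries, score difference 0.31, exact permutation test p = 0.0519, adjusted p = 0.19). Most of that sum was Igf2 (means 966 and 1018 CPM, log2 fold change 0.08), so the sum need not follow the score. For the choroid plexus 8 of 8 markers were above 0 (6445 to 11965 CPM and 8374 to 17657 CPM, score difference 0.39, p = 0.0952 in the exact permutation test, adjusted p = 0.209). Oligodendrocyte markers went the other way, with 7 of 8 below 0 (1116 to 1675 CPM and 1002 to 1528 CPM, score difference -0.16, exact permutation p = 0.229, adjusted p = 0.315). The astrocyte score differed by 0.21 with 7 of 7 markers above 0 (exact permutation p = 0.0173, adjusted p = 0.19). The scores of dentate granule cells, CA3 and CA2, interneurons and microglia differed by -0.11, 0.07, -0.01 and 0.07, with adjusted p of 0.315, 0.315, 0.961 and 0.505 in the exact permutation test. The part of these cells in the Ptgds values was not tested.

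Whether Ptgds followed these markers was examined within genotypes, by taking each library's deviation from the mean of its genotype, which leaves out the contrast that chose the members. Over the 12 libraries the deviations of Ptgds and of the leptomeningeal score had a Pearson r of 0.824 (permutation p = 0.00834, adjusted over the 10 relations examined p = 0.0834) and a Spearman rho of 0.748 (permutation p = 0.0163, adjusted p = 0.163). Without Fmr1-/y replicates 1 and 4, the libraries farthest from the median, r was 0.624. It was 0.731 among wild-type and 0.865 among Fmr1-/y libraries. Neither adjusted value passed 0.05. With the choroid plexus score r was 0.263 (permutation p = 0.462, adjusted p = 0.513; rho 0.126, permutation p = 0.722, adjusted p = 0.802), with -0.840 among wild-type and 0.798 among Fmr1-/y libraries, and -0.277 without Fmr1-/y replicates 1 and 4. With the oligodendrocyte score r was -0.289 (permutation p = 0.36, adjusted p = 0.45; rho -0.252, permutation p = 0.432, adjusted p = 0.72), or -0.402 without Fmr1-/y replicates 1 and 4. It was -0.885 among wild-type and 0.0799 among Fmr1-/y libraries. The differences between the genotypes' correlations were not tested. The genes most like Ptgds among 14910 genes with at least 20 reads per library on average were Crabp2 (r = 0.962), Fmod (0.960), Colec12 (0.929), Itih2 (0.928) and Cdh1 (0.911). Crabp2 encodes a retinoic acid binding protein, Fmod a collagen-binding proteoglycan, Colec12 a scavenger receptor, Itih2 a heavy chain that binds hyaluronan, and Cdh1 E-cadherin.

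**Figure D4:**
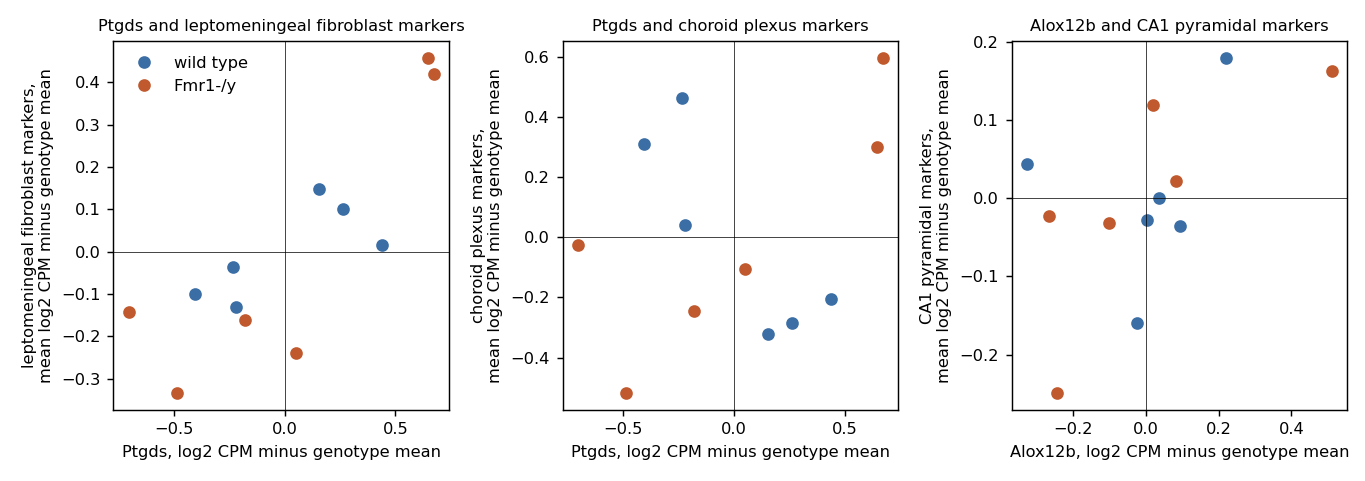
Deviation of Ptgds (left and middle) or Alox12b (right) from its genotype mean on the x axis, in log2 CPM, against the deviation of a marker score on the y axis, with 1 point per library. Over 12 libraries r is 0.824 for Ptgds with the leptomeningeal score (adjusted permutation p = 0.0834), 0.263 with the choroid plexus score (-0.840 among wild-type and 0.798 among Fmr1-/y libraries), and 0.591 for Alox12b with the CA1 pyramidal score.

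Ptges (Entrez 64292, chromosome 2 from 30889471 to 30931020), the inducible microsomal synthase of prostaglandin E2, measured 3.90, 3.31, 4.95, 5.96, 4.08 and 4.22 CPM in wild-type libraries. In Fmr1-/y libraries it was at 7.03, 5.79, 3.95, 6.02, 5.07 and 4.67 CPM. The groups overlapped, with 2 Fmr1-/y libraries, again replicates 1 and 4, above the wild-type maximum (log2 fold change 0.30, SE 0.16, edgeR adjusted p = 0.694). Without them it was 0.15. The endothelial markers were above 0 in 7 of 7 (summed level 43.9 to 61.1 CPM in wild-type and 53.8 to 82.1 CPM in Fmr1-/y libraries, exact permutation test p = 0.0455, adjusted p = 0.19), and within genotypes their score had r = 0.362 with Ptges (permutation p = 0.273, adjusted p = 0.45; rho 0.301, permutation p = 0.362, adjusted p = 0.72), or 0.0750 without wild-type replicate 4 and Fmr1-/y replicate 1.

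For the other members, no relation over the 12 libraries passed 0.05 before adjustment. Alox12b had r = 0.591 with the CA1 pyramidal score (permutation p = 0.0707, adjusted p = 0.353; rho 0.455, permutation p = 0.159, adjusted p = 0.482), and 0.668 without the 2 farthest libraries. With its cluster neighbours it had r = -0.341 (Aloxe3, permutation p = 0.353, adjusted p = 0.45) and -0.0446 (Alox8, permutation p = 0.904, adjusted p = 0.904), with rho of -0.196 (permutation p = 0.565, adjusted p = 0.78) and -0.168 (permutation p = 0.624, adjusted p = 0.78). Without the 2 farthest libraries r was -0.247 and -0.321. From library to library the levels of Alox12b and Alox8 were thus not shown to move together, although their ratios to wild type were nearly equal. Ptgs2 had r = 0.377 with the activity-regulated score (permutation p = 0.291, adjusted p = 0.45; rho 0.0280, permutation p = 0.941, adjusted p = 0.941), which became -0.123 without Fmr1-/y replicates 1 and 3. Against the microglial score, r was 0.437 for Ptgs1 (permutation p = 0.214, adjusted p = 0.45; rho 0.413, permutation p = 0.193, adjusted p = 0.482) and 0.493 without the 2 farthest libraries. For Alox5 it was -0.499 (permutation p = 0.106, adjusted p = 0.353; rho -0.427, permutation p = 0.183, adjusted p = 0.482) and -0.512 without them.

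The genes most like the other members were picked in the same way from 14910 genes, so their correlations over 12 libraries are the highest of many. For Alox12b they were Rpl29 (r = 0.924), a ribosomal protein gene, Clvs1 (0.923), a lipid-binding protein of neuronal endosomes, Ppp4r4 (0.904), a phosphatase regulator, 4930430F08Rik (0.898) and Gskip (0.885), which binds a glycogen synthase kinase. For Ptgs2 they were Gm527 (0.975), Gigyf1 (0.973), an adaptor of translational repression, Pxdn (0.958), a peroxidase of the extracellular matrix, Fam53b (0.954) and Rgs8 (0.954), a regulator of G protein signalling. For Ptgs1 they were Gimap8 (0.851), Luzp2 (0.841), Acp5 (0.827), a phosphatase of macrophages and osteoclasts, Axl (0.826), a receptor tyrosine kinase, and Abtb2 (0.825). No activity-regulated marker was among the 5 genes most like Ptgs2, and no microglial marker of the list was among those most like Ptgs1. With only 5 of 14910 genes taken, this absence was likely in any case, and nothing is read from it.

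Other eicosanoid genes were read from a list drawn up by role. The list held no gene of the Cyp family, such as Cyp4f15. The paper places Cyp4f15, Alox12b and Ltc4s under arachidonic acid metabolism, among the genes it found to differ between genotypes. Of 56 further genes of the list found in the table, 50 were tested, 28 with log2 fold changes above 0 and 22 below, and the median was 0.03. The 6 others (Pla2g4b, Pla2g4d, Pla2g2e, Pla2g12b, Akr1b3 and Gpr31b) had too few reads to be tested. None was called in either direction by edgeR (0.0224% of all genes), and 5 of the 50 had an unadjusted p under 0.05 (7.96% of all genes). DESeq2 called 1 of the 35 it gave an adjusted p for, Ltc4s, beside 0.571% of all genes with one. The paper had already called Ltc4s with DESeq2 on the same libraries, so nothing is read from this call. Ltc4s, the synthase that joins glutathione to leukotriene A4, measured 4.50, 4.46, 7.42, 7.98, 5.88 and 4.57 CPM in wild-type libraries and 13.6, 8.18, 8.53, 11.6, 10.2 and 7.17 CPM in Fmr1-/y libraries. Of the Fmr1-/y libraries, 5 were above the wild-type maximum, and replicates 1 and 4, those high in Ptgds, were the highest. Among wild-type libraries, replicates 1, 2 and 6 had the highest Ptgds and the lowest Ltc4s values. A relation between Ltc4s and Ptgds was not tested. The level of Ltc4s was 170% of wild type (log2 fold change 0.77, SE 0.18, adjusted p = 0.215 by edgeR and 0.0125 by DESeq2). The log2 fold change of Lta4h, which makes leukotriene B4, was 0.16 (SE 0.07, edgeR adjusted p = 0.573), and that of Alox5ap was -0.02. The most abundant gene of this role was Mgst3, a microsomal glutathione transferase, at 62.2 CPM.

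In the release of arachidonic acid, 7 of 12 tested genes had log2 fold changes above 0. Pla2g4a, the calcium-dependent cytosolic phospholipase, measured 1.39, 1.53, 1.11, 1.87, 1.62 and 0.699 CPM in wild-type libraries and 2.55, 2.32, 1.31, 2.56, 2.48 and 2.13 CPM in Fmr1-/y libraries. All Fmr1-/y libraries but replicate 3 were above the wild-type maximum (log2 fold change 0.70, SE 0.23, edgeR adjusted p = 0.409). Pla2g10, a secreted phospholipase, had 0 reads in all wild-type libraries and 11, 5 and 4 reads in Fmr1-/y replicates 1, 3 and 5, with none in the others. Pla2g6, the calcium-independent enzyme, had the smallest p among genes with log2 fold changes below 0 (-0.14, SE 0.08, edgeR adjusted p = 0.726). Mgll, a lipase that frees arachidonic acid from an endocannabinoid, was the most abundant gene of the list at 159 CPM (log2 fold change -0.07, standard error 0.06).

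Among synthases and reductases of prostanoids, 6 of 10 tested genes were above 0. The most abundant was Ptges3 at 155 CPM, a cochaperone that also makes prostaglandin E2 (log2 fold change 0.03, standard error 0.08), and Akr1b8, an aldo-keto reductase, had -0.45 (SE 0.28, edgeR adjusted p = 0.757). For breakdown and transport it was 4 of 6, with log2 fold changes between -0.14 and 0.15, and Ptgr2, a prostaglandin reductase, was the highest at 60.3 CPM. Receptors of prostanoids divided into 4 above and 6 below 0. Ptgfrn, a partner protein of the prostaglandin F receptor, was the highest of that group at 27.2 CPM (log2 fold change 0.10, standard error 0.13), while the prostacyclin receptor Ptgir had 0 to 14 reads in a library and -1.05 (SE 0.80, edgeR adjusted p = 0.818). The receptors of leukotrienes and hydroxy fatty acids had mean levels at or below 0.291 CPM, that of Ltb4r1, and 3 of 5 were above 0.

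**Figure D5:**
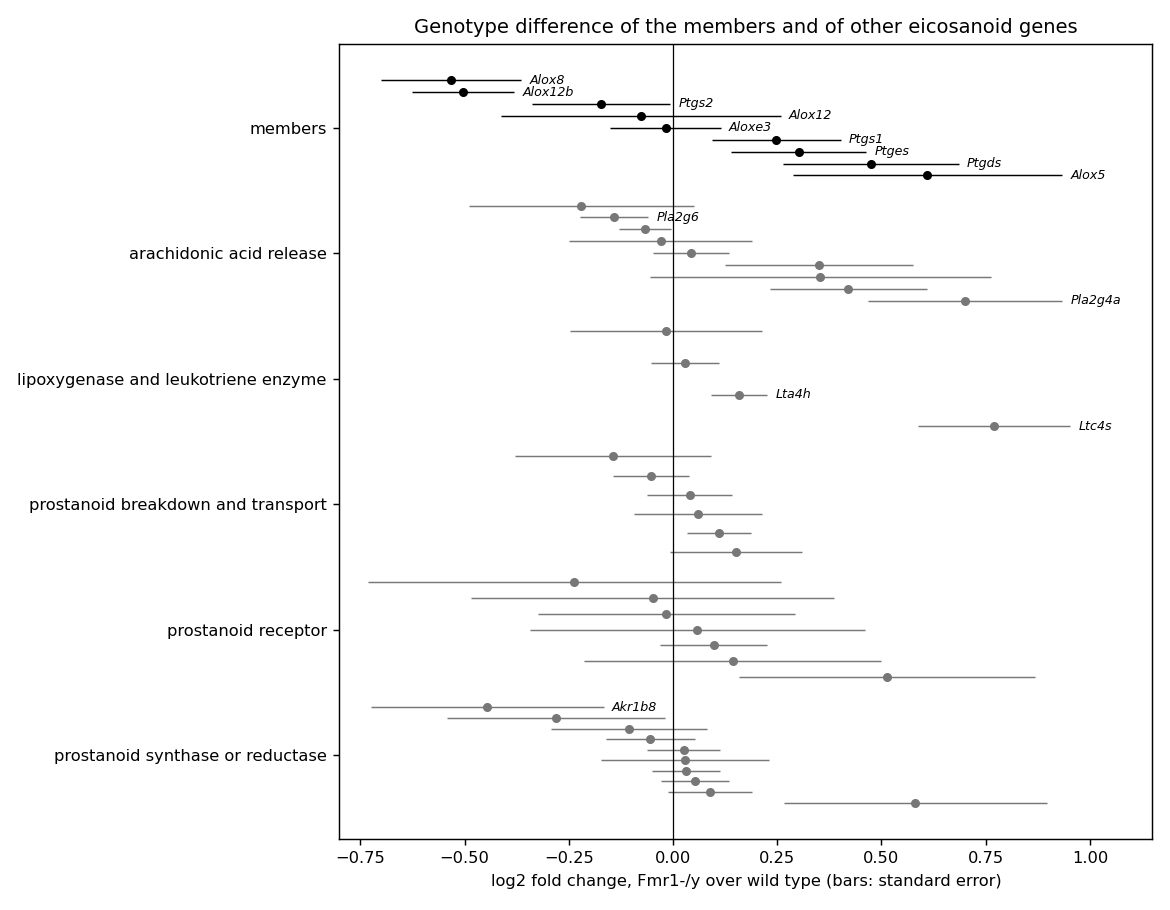
Log2 fold change (Fmr1-/y over wild type) with its standard error for the 9 members (black) and for the 36 of 50 tested pathway genes with at least 20 reads per library on average (grey), by role. Alox8 (-0.53) and Alox12b (-0.50) lie at the left of the members, and Ltc4s (0.77) lies farthest to the right.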

How the data were processed

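The libraries, 6 wild-type and 6 Fmr1-/y, hold ribosome-bound RNA. Per the labels and the paper's methods, the authors demultiplexed with bcl2fastq 2.17, aligned single-end reads of stranded poly-A libraries to mm10 with TopHat2 2.1.1 (Bowtie2 2.2.8), and counted strand-specifically (reverse orientation) with HTSeq 0.6.1p1. The deposited values are raw read counts per gene. The study's filter, a sum of at least 15 reads per gene, was applied. Genotypes were compared across all genes with edgeR 4.0.16 (TMM, quasi-likelihood test, Benjamini-Hochberg adjustment, threshold 0.05) in R 4.3.3, with DESeq2 1.42.0, limma 3.58.1 voom, other scalings and filters, a replicate block and left-out libraries as alternatives. A standard error is the log2 fold change divided by the square root of F. The test was checked on simulated counts. Marker scores are mean log2 CPM (prior count 2), compared with two-sided exact permutation tests. Correlations used 100000 shuffles within genotypes. Lengths are those of the longest GENCODE vM21 transcript paired with a RefSeq mRNA. SE stands for standard error. Named were all members, their 3 tested neighbours on each side, the 5 most similar genes for 4 members, and from the pathway list the 3 higher and 3 lower genes with the smallest p and the most abundant of each role. Lta4h, Alox5ap and the printed promoters were chosen after values were seen. The members and lists were chosen with earlier results of these data known.

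Reads were not collapsed by molecular identifiers.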

Additional observations from a re-analysis of the deposited data

Results flagged for a closer look

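The levels of the 9 members and the 11 marker scores were examined within each genotype for an isolated library, using Dixon's ratio of the gap at the end of a group to its full width. Among 40 groups 1 passed the critical value, where chance gives about 2.0. This was Alox5 in Fmr1-/y libraries (ratio 0.666), with replicate 3 at 1.26 CPM and the others between 0.498 and 0.754 CPM. The count behind it was 56 reads, against 27 to 42 reads in the others.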

How the results depend on the processing

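Across 19 other settings (DESeq2, voom, other scalings and filters, the replicate block and each library left out in turn), Alox12b, Alox8, Alox5, Ptgs1, Ptgs2, Ptgds and Ptges kept the sign of their log2 fold change, and of the 9 members only Alox12b crossed the threshold, with DESeq2 (-0.51, adjusted p = 0.0226). Its adjusted p over these settings ran from 0.0226 to 0.517. Aloxe3 and Alox12 lay too near 0 for a sign: Aloxe3 was at 0.0082 with library totals and ran from -0.074 to 0.044 when single libraries were left out, and Alox12 from -0.17 to 0.058. With both Fmr1-/y libraries high in Ptgds left out, chosen after seeing the data, they were at 0.032 and 0.047, Alox12b was at -0.42, Alox8 at -0.46, Alox5 at 0.77, Ptgs1 at 0.13, Ptgs2 at -0.12, Ptgds at 0.08 and Ptges at 0.15. Over all genes, edgeR called 4 genes, all lower, and 2, all lower, without those libraries. DESeq2 called 84, 53 lower and 31 higher. Leaving out single libraries gave 2 to 6 genes, 2 to 5 lower and 0 to 1 higher, with 2 genes without Fmr1-/y replicate 1, 4, 5 or 6 or wild-type replicate 4, 5 or 6. The cause was not tested. Same-numbered libraries were not treated as pairs, since their deviations from the group means correlated between -0.0809 and 0.0899 over all genes, and between -0.443 and 0.599 over genes with a mean log2 CPM above 5, so not every pair was positive. With the replicate block edgeR called 4 genes, and Alox12b had an adjusted p of 0.136. The block changed no call of a member.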
